A study of Mus musculus with 16 samples.

Results

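The mouse mitochondrial chromosome carries 37 genes, and each of them had a row in the count table, chosen by a locus on that chromosome out of 46078 genes in all. By the biotype column they were 13 coding genes, 2 rRNA genes (mt-Rnr1 and mt-Rnr2) and 22 tRNA genes. Their levels were followed in 4 groups of 4 libraries each, which combine 2 transfections with 2 kinds of RNA.

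The mitochondrial genome is a small circle that is transcribed from both strands into long precursor RNAs. The precursors are cut, mostly at the tRNAs that punctuate them, into mRNAs, rRNAs and tRNAs, and most of the mRNAs receive a short poly(A) tail. The coding genes make core subunits of the respiratory chain and of the ATP synthase: complex I (mt-Nd1 to mt-Nd6 and mt-Nd4l), complex III (mt-Cytb), complex IV (mt-Co1 to mt-Co3) and ATP synthase (mt-Atp6 and mt-Atp8). The other subunits are encoded in the nucleus, and heart muscle is known for a high content of both sets. The organelle's transcripts lie behind the mitochondrial membranes, and Ago2, the protein that holds a miRNA on its target, acts mainly in the cytoplasm.

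The cells were cultured juxtaglomerular (JG) cells, the renin-secreting cells of the kidney, engineered to express YFP from the renin promoter. They received either miR-106b or, as control, a non-mammalian microRNA precursor, and were harvested 48 h later. PolyA RNA came from 4 control and 4 miR-106b cultures lysed directly, and Ago2-IP RNA from further cultures of both transfections that were trypsinized before Ago2 was immunoprecipitated, so that the kind of RNA cannot be told apart from these steps. Libraries did not mark strand, ribosomal RNA reads had been removed by the authors, and the libraries hold between 2579086 and 9459585 counts each. In polyA RNA every control library was deeper (5692958 to 9459585 counts) than every miR-106b library (2815272 to 4554848), so that depth goes with transfection there. The defining marker of the label was not seen in these counts: Ren1, the renin gene, had 0 counts in every library. A count of 0 allows up to 0.317 to 1.16 CPM (counts scaled to a library of 1e6 counts), depending on the library. Other genes of a juxtaglomerular and mural list were counted, and the list summed to 2441 to 2671 CPM in polyA control libraries. The paper reported renin of its JG cells by YFP, mRNA and secretion. Genes of cardiac muscle were abundant, with Myh6, the cardiac myosin heavy chain, at 8371 to 11928 CPM in polyA control and 37803 to 40531 CPM in Ago2-IP control libraries.

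Counts of the coding genes are given first beside the sequence that each shares with other transcripts. Summed over the 16 libraries, 8 coding genes had 23709 to 156095 counts each: mt-Nd1, mt-Nd2, mt-Nd4, mt-Nd5, mt-Nd6, mt-Cytb, mt-Co1 and mt-Atp8. The remaining 5 had 259 (mt-Co2), 78 (mt-Atp6), 64 (mt-Co3), 49 (mt-Nd3) and 12 counts (mt-Nd4l), or 462 of the 887922 counts of the 13 coding genes. Every one of these 5 lies in a stretch that chromosome 1 repeats as a row of annotated copies on its minus strand (GRCm38, chr1:24611535-24616197). Of their windows of 50 bases, the length of a read, 98.0% to 100% occurred in another annotated transcript, whereas in the 8 well-counted genes the share was at most 62.2%. The starts of some genes are shown beside their copies, since the letters show what an aligner had to tell apart. Capitals mark the bases that differ, and sequences are those of GENCODE M21 transcripts.
mt-Co2 (chrMT:7013-7042, plus strand): atggcctacccattccaacttggtctacaa
Gm28661 (chr1:24615536-24615565, minus strand): atggcctacccattccaacttggtctacaa
mt-Co3 (chrMT:8607-8636, plus strand): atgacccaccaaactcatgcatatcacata
Gm28437 (chr1:24613942-24613971, minus strand): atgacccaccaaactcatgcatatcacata
mt-Atp6 (chrMT:7927-7956, plus strand): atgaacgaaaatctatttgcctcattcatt
Gm10925 (chr1:24614622-24614651, minus strand): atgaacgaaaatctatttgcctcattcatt
mt-Nd3 (chrMT:9459-9488, plus strand): atTaacctgtacactgttatcttcattaat
Gm28438 (chr1:24613090-24613119, minus strand): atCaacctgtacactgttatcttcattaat
mt-Co1 (chrMT:6381-6410, plus strand): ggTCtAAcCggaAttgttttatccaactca
Gm29216 (chr1:24616168-24616197, minus strand): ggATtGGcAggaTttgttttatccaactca

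Over their whole annotated length, the copies of mt-Co2, mt-Co3, mt-Atp6 and mt-Nd4l, and that of the start of mt-Nd4 (Gm28439), had 0 differing bases. The copy of mt-Nd3 differed at 1 of 345 bases, T3C (the mitochondrial base first, positions from 1 at the first base of the gene). The copy of the end of mt-Co1 differed at 6 of 492 bases, T1056A, C1057T, A1059G, A1060G, C1062A and A1066T. The 7 copies themselves were also close to empty, with 714 counts in all and 0 to 22 counts per copy and library. HTSeq in its default mode leaves out reads that align to more than 1 place, and whether that setting was used is not given in the sources used here. The level of mt-Co2, mt-Co3, mt-Atp6, mt-Nd3 and mt-Nd4l is therefore uncertain, and their values are given as counts of the reads that remained. mt-Atp8 lies inside the same stretch, at chrMT:7766-7969, shared 0 windows with another annotated transcript and kept 23709 counts. As only annotated transcripts were searched, a copy of mt-Atp8 outside them would not have been seen. Its end overlaps the start of mt-Atp6 (chrMT:7927-8607), and the end of mt-Nd4l (chrMT:9877-10173) overlaps the start of mt-Nd4 (chrMT:10167-11544), so that reads over these overlaps cannot be assigned to 1 gene.

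**Figure D1:**
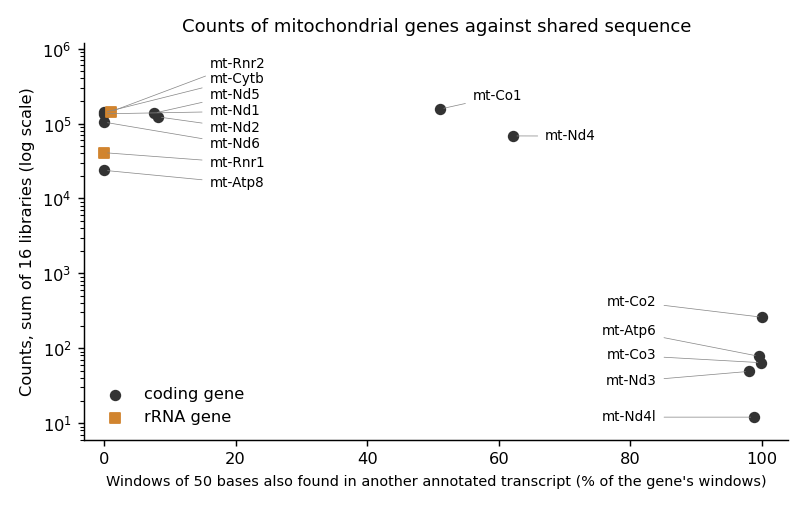
Counts of each mitochondrial coding and rRNA gene, summed over 16 libraries (log scale), against the percent of its windows of 50 bases that occur in another annotated transcript. The 5 coding genes with 98.0% to 100% shared windows have 12 to 259 counts, and the other 8 have 23709 to 156095.

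Per length, the coding genes did not stand at one level. In polyA control libraries mt-Nd6, a complex I subunit and the only coding gene on the minus strand, was highest at 1646 ± 142 CPM per kb (SD, n = 4). It was followed by mt-Nd1 at 1087 ± 88.6, mt-Atp8 at 1065 ± 86.2 and mt-Cytb at 1028 ± 65.8 CPM per kb, 3 neighbours whose ranges over the libraries overlapped. mt-Nd2 stood at 903 ± 86.5, mt-Co1 at 780 ± 84.2, mt-Nd5 at 651 ± 30.4 and mt-Nd4 at 402 ± 41.1 CPM per kb. The range of mt-Nd2 overlapped with those of mt-Cytb above and mt-Co1 below it, while mt-Nd5 and mt-Nd4 each lay below the next higher gene in every library. In Ago2-IP control libraries mt-Nd6 was again highest at 4111 ± 58.1 and mt-Nd4 lowest at 984 ± 24.0 CPM per kb. mt-Nd4 and mt-Co1 share 62.2% and 51.1% of their windows with nuclear copies or other transcripts. Per window that was not shared, and with counts pooled over all 16 libraries, mt-Nd6 had 222 and mt-Co1 214 counts per unshared window, mt-Atp8 153, mt-Nd1 148, mt-Nd4 136, mt-Nd2 135, mt-Cytb 128 and mt-Nd5 83.8. By this measure mt-Nd5 stood lowest and mt-Nd4 beside mt-Nd2, so that the last place of mt-Nd4 per kb was not kept. The measure takes all counts of a gene to come from its unshared windows, and the pooled values carry no spread. Since strand was not kept, reads of mt-Nd6 cannot be told apart from reads of a plus-strand precursor running over it. The rRNA genes, whose level is what the removal of ribosomal reads left, stood at 430 ± 55.0 (mt-Rnr1, the small-subunit rRNA) and 833 ± 85.2 CPM per kb (mt-Rnr2, the large-subunit rRNA).

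The tRNA genes were counted thinly, with 230 to 528 counts for all 22 in a library. The 8 tRNA genes on the minus strand held 4390 counts, 78.4% of those of the 22, and the 14 on the plus strand held 1213. In single libraries the minus-strand share lay between 70.3% and 83.7%, and the ranges of the 4 groups overlapped. mt-Te, the tRNA for glutamate that sits between mt-Nd6 and mt-Cytb, alone held 31.1%, and mt-Tc (cysteine) and mt-Ts1 (serine) 16.1% each. At the other end, 7 tRNA genes had 4 to 32 counts in all libraries together and entered no test. Since strand was not kept, reads on a tRNA gene cannot be assigned to its strand, and the shares by strand describe loci only. Some tRNA genes, such as mt-Td, mt-Tg and mt-Tr (plus strand) and mt-Ts1 (minus strand), lie between coding genes with copies on chromosome 1. Copies of tRNA genes outside annotated transcripts were not searched.

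Genes entered the tests if 3 or more replicates of some group reached 1 CPM, which left 14897 genes and 28 of the 37 members: 11 coding genes (without mt-Nd3 and mt-Nd4l), both rRNA genes and 15 tRNA genes. Of these, 19 reached the threshold in all 4 groups. The other 9 reached it in both Ago2-IP groups and never in polyA control, so that their differences between these groups were in part fixed by the filter.

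The first comparison asked how the levels in polyA RNA answered to miR-106b. The 13 coding genes took more of the counts after miR-106b transfection. Their share of all counts in polyA control libraries 1 to 4 was 0.742%, 0.661%, 0.686% and 0.783%, and in the miR-106b libraries 0.926%, 1.45%, 1.11% and 1.36%. Every miR-106b library lay above every control library, and the miR-106b libraries differed more among themselves, with replicates 2 and 4 highest. The mean rose from 0.718% ± 0.055 to 1.21% ± 0.239 (SD, n = 4 each), a ratio of 1.69 (exact two-sided permutation test, p = 0.0286, which is the lowest value that 70 relabellings of 8 libraries allow). In bulk RNA, a higher share from more cells of a type, from more of this RNA per cell or from less of other RNA cannot be told apart. The rRNA genes took 0.173% ± 0.018 in control and 0.239% ± 0.05 in miR-106b libraries, and these groups overlapped (exact permutation test, p = 0.0857).

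**Figure D2:**
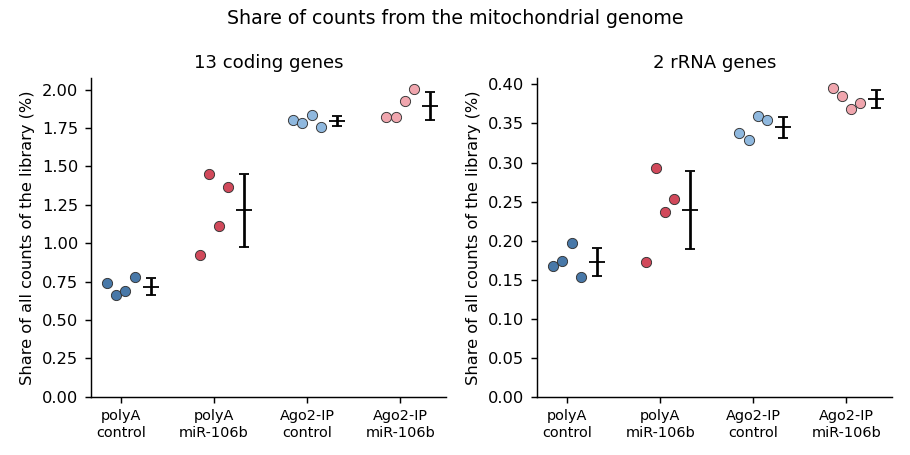
Share of all counts of a library taken by the 13 coding genes (left) and the 2 rRNA genes (right) of the mitochondrial genome, 1 point per library, with mean and SD of 4 libraries beside each group. For the coding genes the polyA control libraries lie between 0.661% and 0.783%, the polyA miR-106b libraries between 0.926% and 1.45%, and both Ago2-IP groups between 1.76% and 2.01%.

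Gene by gene, each of the 8 well-counted coding genes rose in polyA RNA, and each had miR-106b libraries that all lay above the control libraries. Values here are CPM after TMM scaling within the polyA libraries, and tests are edgeR's quasi-likelihood test with Benjamini-Hochberg adjustment over all 14897 genes. mt-Nd2, of complex I, stood at 942, 826, 906 and 1045 in control and at 1259, 2103, 1460 and 1999 in miR-106b libraries. mt-Co1, the catalytic core of complex IV, stood at 1251, 1085, 1091 and 1357 against 1746, 2661, 1872 and 2501. Both groups of values were separate, with miR-106b replicates 1 and 3 nearest to the controls. On the log2 scale mt-Nd2 rose by 0.87 ± 0.17 (SE, adjusted p = 0.00177) and mt-Co1 by 0.88 ± 0.16 (adjusted p = 0.00133). The other complex I genes rose by 0.86 (mt-Nd1, adjusted p = 0.00139), 0.81 (mt-Nd4, 0.00155), 0.77 (mt-Nd6, 0.00215) and 0.63 (mt-Nd5, 0.00615), mt-Cytb of complex III by 0.72 (0.00374) and mt-Atp8 of the ATP synthase by 0.60 (0.00531). The smallest of these changes belonged to mt-Atp8 and mt-Nd5. Across all genes tested the median change was -0.05.

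Both rRNA genes rose in polyA RNA as well. mt-Rnr2 stood at 1276, 1277, 1490 and 1184 CPM in control and at 1344, 2375, 1731 and 2084 CPM in miR-106b libraries, and mt-Rnr1 at 394, 443, 452 and 341 against 416, 607, 544 and 556 CPM. In both genes miR-106b replicate 1 lay within the range of the controls. mt-Rnr2 rose by 0.53 ± 0.17 (edgeR's quasi-likelihood test, adjusted p = 0.0262) and mt-Rnr1 by 0.38 ± 0.14 (adjusted p = 0.0450). The call of mt-Rnr2 was lost without polyA control replicate 4 or miR-106b replicate 2 or 4 (adjusted p = 0.0608 to 0.0829). That of mt-Rnr1 was lost without control replicate 1 or 4 or miR-106b replicate 2, 3 or 4 (0.0631 to 0.127).

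In total 17 of the 28 members tested rose in polyA RNA and 0 fell, where 19.0% of all genes tested rose and 21.5% fell. They were 8 of 11 coding genes, both rRNA genes and 7 of 15 tRNA genes, and among the 19 members that passed the filter in all 4 groups 15 rose. Groups did not overlap for the 8 coding genes and for mt-Te, mt-Ts1, mt-Tn and mt-Tq, where 16.7% of all genes tested had every miR-106b library above every control library. Of the thinly counted coding genes, mt-Co2 had a log2 change of 0.81 (adjusted p = 0.125), mt-Co3 of 0.74 (0.325) and mt-Atp6 of 1.35 (0.0943). Without miR-106b replicate 3, mt-Co2 (adjusted p = 0.0221) and mt-Atp6 (0.0497) passed as well. The tRNA genes that rose were mt-Te, mt-Ts1, mt-Tn (asparagine), mt-Tc, mt-Tv (valine), mt-Tq (glutamine) and mt-Ty (tyrosine). mt-Te, the best counted of them, stood at 11.7, 10.6, 13.5 and 15.7 CPM in control and at 18.5, 30.4, 23.1 and 25.2 CPM in miR-106b libraries, and rose by 0.92 ± 0.18 (adjusted p = 0.00202). mt-Ts1 rose by 0.94 (adjusted p = 0.00312) and mt-Tn by 1.51 (0.00249). mt-Tc (0.0378), mt-Tv (0.0429), mt-Tq (0.0195) and mt-Ty (0.0240) passed with between 3 and 58 counts in a polyA library. Their calls each rested on single libraries: that of mt-Tq was lost without miR-106b replicate 2 (log2 change 1.11, adjusted p = 0.107), those of mt-Tc and mt-Ty without control replicate 2 or 3 or miR-106b replicate 2 or 4 (0.0572 to 0.132), and that of mt-Tv without any polyA library but miR-106b replicate 1 or 2 (0.0509 to 0.108). Without the libraries that stood highest, 12 members passed, whether miR-106b replicate 2 or replicate 4 was left out, and the 8 well-counted coding genes were among those called in every such fit.

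In Ago2-IP RNA the same transfections were compared. The coding genes' share of counts was 1.81%, 1.78%, 1.83% and 1.76% in control and 1.82%, 1.82%, 1.93% and 2.01% in miR-106b libraries, groups that overlapped (means 1.79% ± 0.0312 and 1.89% ± 0.0904, exact permutation test, p = 0.0857). The difference of 0.0986 percentage points was 0.0613 without miR-106b replicate 4, and with the counts of protein-coding genes as denominator it was 0.114 (exact permutation test, p = 0.0286). With edgeR's quasi-likelihood test 0 of 28 members passed, and 0% of all 14897 genes did, while DESeq2's Wald test called 1 member and 2 genes in all. At an unadjusted p under 0.05 there were 8 of the 28 members, where 5.55% of all genes had such a p. The 8 well-counted coding genes had log2 changes between 0.03 and 0.11, each with an SE of at most 0.04, and adjusted p between 0.636 and 0.946. mt-Nd4, a complex I gene, had the largest at 0.11 ± 0.04.

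mt-Rnr2 came nearest to a change in Ago2-IP RNA. It stood at 2702, 2624, 2792 and 2796 CPM in control and at 3038, 2946, 2944 and 3019 CPM in miR-106b libraries, scaled within the Ago2-IP libraries. These groups did not overlap, as was so, in this direction, for 1.56% of all genes tested. Its log2 change was 0.13 ± 0.03 (edgeR's quasi-likelihood test, adjusted p = 0.168), and it passed without Ago2-IP miR-106b replicate 4 (adjusted p = 0.0234), with DESeq2's Wald test and with a minimum of 10 counts in every library (0.0127). As a share of counts, both rRNA genes together took 0.345% ± 0.014 of counts in control and 0.381% ± 0.0119 in miR-106b libraries, without overlap (exact permutation test, p = 0.0286). The ratio between the 2 rRNAs varied among these libraries: mt-Rnr2 had 4.10, 3.92, 3.60 and 3.62 counts per count of mt-Rnr1 in control and 3.32, 3.15, 4.08 and 4.09 in miR-106b libraries, so that miR-106b replicates 1 and 2 lay below every control library and replicates 3 and 4 among them. The only member lower in every Ago2-IP miR-106b library was mt-Co2, with 5.69, 5.58, 5.37 and 6.33 CPM in control and 3.88, 4.96, 2.58 and 5.24 CPM after miR-106b, where 1.70% of all genes tested had groups apart in this direction. Its log2 change was -0.45 (adjusted p = 0.916).

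**Figure D3:**
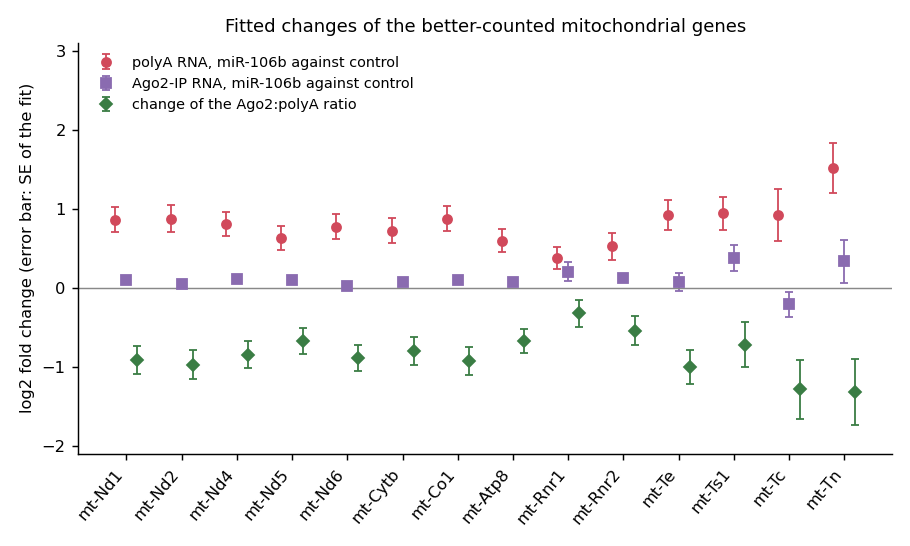
Fitted log2 fold changes with their SE for the 8 well-counted coding genes, the 2 rRNA genes and 4 tRNA genes of the mitochondrial genome. PolyA changes (circles) lie above 0 and changes of the Ago2:polyA ratio (diamonds) below 0 for each gene shown, while changes in Ago2-IP RNA (squares) lie between -0.21 and 0.37.

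The level of the mitochondrial transcripts in Ago2-IP RNA against polyA RNA was compared next, within each transfection and in 1 fit of all 16 libraries. These comparisons use the polyA libraries a second time, so they are not independent of the one above. After control transfection the coding share was 0.661% to 0.783% in polyA RNA and 1.76% to 1.83% in Ago2-IP RNA. mt-Nd6, scaled over all 16 libraries, stood at 809, 679, 706 and 798 CPM in polyA and at 2330, 2385, 2328 and 2275 CPM in Ago2-IP control libraries. The Ago2-IP libraries lay far above the polyA libraries and close to each other. The log2 difference of the 8 well-counted coding genes was between 1.39 (mt-Atp8) and 1.76 (mt-Nd2), with an SE of at most 0.13, and that of the rRNAs 1.12 (mt-Rnr1) and 1.37 (mt-Rnr2). Of the 28 members tested 27 were higher in Ago2-IP RNA, all but mt-Atp6 (log2 difference 1.31, edgeR's quasi-likelihood test, adjusted p = 0.0571, and 0.0220 to 0.0487 without polyA control replicate 1, polyA miR-106b replicate 4 or Ago2-IP control replicate 2), where 35.1% of all genes tested were higher. All 19 members that passed the filter in every group were among the 27.

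The same comparison was made after miR-106b transfection. mt-Nd6 stood at 1066, 1658, 1250 and 1595 CPM in polyA and at 2250, 2269, 2373 and 2477 CPM in Ago2-IP libraries. The kinds of RNA were still apart, with polyA replicates 2 and 4 nearest to the Ago2-IP libraries. The 8 coding genes were higher in Ago2-IP RNA by 0.72 (mt-Atp8) to 0.84 (mt-Nd5) on the log2 scale, and the rRNAs by 0.80 and 0.83. Here 18 of 28 members were higher (edgeR's quasi-likelihood test), 15 of them among the 19 that passed in every group, where 21.9% of all genes were. With scaling to library size only, the median difference of all genes moved from -0.03 to -0.35 in control and from -0.04 to -0.19 after miR-106b transfection, and the coding genes then differed by 1.07 to 1.45 and by 0.57 to 0.69.

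The change of the Ago2:polyA ratio upon miR-106b transfection, which the study used as a measure of RISC association, is the difference between these differences. It fell for all 8 well-counted coding genes. The largest fall was that of mt-Nd2, by 0.97 ± 0.18 on the log2 scale (edgeR's quasi-likelihood test, adjusted p = 0.000343), and the smallest were those of mt-Atp8 (by 0.67, adjusted p = 0.00207) and mt-Nd5 (by 0.67, adjusted p = 0.00377). mt-Rnr2 had a change of -0.54 (adjusted p = 0.0305) that was lost in 9 of 16 fits that left out 1 library (without polyA control replicate 1, 2 or 4, polyA miR-106b replicate 2 or 4, Ago2-IP control replicate 3, or Ago2-IP miR-106b replicate 1, 2 or 3, adjusted p = 0.0504 to 0.173), and was -0.31 without polyA miR-106b replicate 2. mt-Rnr1 had a change of -0.32 ± 0.17 (adjusted p = 0.165). It passed in 1 of 16 fits that left out a library, without polyA miR-106b replicate 1 (0.0285), and its change was -0.16 (0.540) without polyA miR-106b replicate 2. Of the 28 members 15 fell and 0 rose, where 19.7% of all genes tested fell and 7.62% rose, and among the 19 members that passed the filter in every group, which leaves out mt-Ty, 14 fell. Besides the coding genes and mt-Rnr2 these were mt-Te (by 1.0), mt-Tc (by 1.28), mt-Tn (by 1.32), mt-Tv (by 1.66) and mt-Ty (by 2.29), and mt-Co2 with a change of -1.41 (adjusted p = 0.0345). The call of mt-Co2 was lost without polyA control replicate 1 or 3, polyA miR-106b replicate 2 or 4, Ago2-IP control replicate 4, or Ago2-IP miR-106b replicate 1 or 3 (adjusted p = 0.0570 to 0.145). That of mt-Tv was lost without polyA control replicate 1 or 2, polyA miR-106b replicate 3 or 4, Ago2-IP control replicate 1 or 3, or Ago2-IP miR-106b replicate 2 or 4 (0.05 to 0.0771). That of mt-Tn was lost without polyA control replicate 3 or Ago2-IP control replicate 1 (0.0503 and 0.0578) and with no filter on low counts (0.0645), and that of mt-Tc without polyA miR-106b replicate 2 (0.0573). The ratio uses the same polyA libraries as the first comparison, and the changes of these coding genes in Ago2-IP RNA were those given above, so it is not a separate piece of evidence.

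A site for the transfected miRNA was looked for in the members themselves. The mature sequence of mouse miR-106b-5p from RefSeq is given with its seed (bases 2 to 8) in capitals, and under it the stretch of mt-Co1 that holds the complement of the seed, GCACTTT, also in capitals.
miR-106b-5p: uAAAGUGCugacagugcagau
mt-Co1 (chrMT:5452-5480, plus strand): gtcaaccaggtGCACTTTtaggagatgac

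This was the only match in the 37 genes on either strand, and it lies in the coding sequence. Among 16671 nuclear protein-coding genes, 8.6% held GCACTTT within as many bases from the start of their longest transcript as mt-Co1 is long. The ratio of mt-Co1 fell by 0.93, and those of mt-Nd2 and mt-Nd1, which hold no match, fell by 0.97 and 0.91. Its rise of 0.88 ± 0.16 (SE) in polyA RNA was the largest of the 8 well-counted coding genes, next to 0.87 for mt-Nd2. Whether the match has a part in these changes was not tested. A match is a description of letters and says nothing of binding.

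Whether the coding genes moved alike was examined within the mitochondrial counts alone, which does not depend on the scaling of libraries. mt-Co1 had the highest mean share of the counts of the 13 coding genes in each of the 4 groups (16.8% to 17.9%), although mt-Nd5 lay above it in polyA control replicates 1 to 3, and mt-Atp8 had the lowest share of the 8 genes. After miR-106b transfection the polyA share of mt-Nd1 went from 14.3%, 14.5%, 14.4% and 14.7% to 15.4%, 15.5%, 15.1% and 15.1%, without overlap. That of mt-Nd5 went from 17.0%, 17.2%, 16.8% and 15.3% to 14.6%, 14.6%, 15.6% and 14.7%, where control replicate 4 lay among the miR-106b libraries. The largest mean difference was that of mt-Nd5, -1.72 percentage points (exact permutation test, p = 0.0571). It was 0.79 for mt-Nd1, 1.15 for mt-Co1, -0.36 for mt-Atp8 and -0.71 for mt-Cytb, each without overlap of the groups (exact permutation test, p = 0.0286). For mt-Nd2 it was 0.78 (exact permutation test, p = 0.0857). As shares of the same total, these changes are not independent of each other. With 4 against 4 libraries an exact p cannot go below 0.0286, so that the Benjamini-Hochberg adjustment over the 52 tests of this kind (lowest adjusted p = 0.149) had little room to call any gene. Unadjusted p under 0.05 stood for 4 genes in polyA RNA, 2 in Ago2-IP RNA, 4 between the kinds of RNA in control and 0 after miR-106b transfection. Across the 4 groups the share of mt-Nd5 was 15.2% ± 0.245 in Ago2-IP control, 15.4% ± 0.205 in Ago2-IP miR-106b, 14.9% ± 0.491 in polyA miR-106b and 16.6% ± 0.877 in polyA control. The rRNA genes had 19.6 to 28.7 counts per 100 coding counts in polyA control and 18.5 to 21.7 in the other 3 groups (lowest adjusted p = 0.229 over 8 exact permutation tests).

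**Figure D4:**
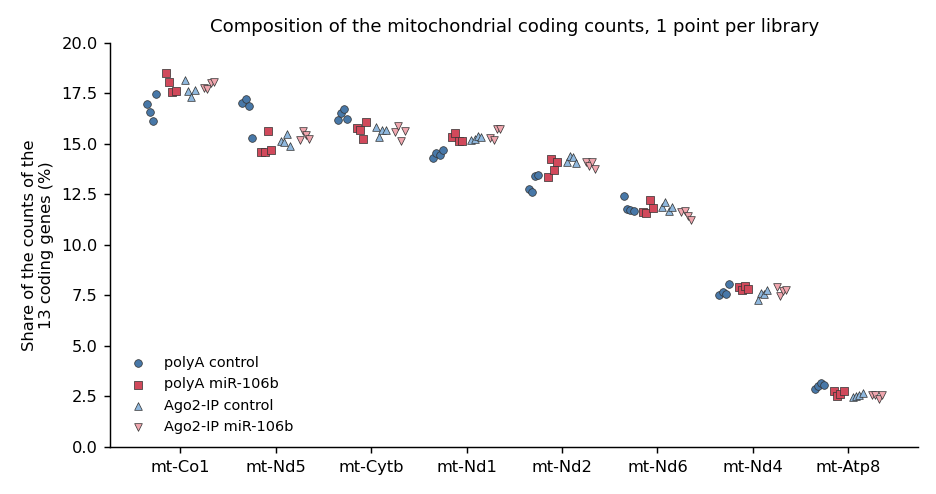
Share of each of the 8 well-counted genes in the counts of the 13 coding genes, 1 point per library, by group. The circles (polyA control) lie below the squares (polyA miR-106b) for mt-Nd1 and mt-Co1 and above them for mt-Atp8 and mt-Cytb.

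The nuclear-encoded partners of these genes rose in polyA RNA as well. Of 74 nuclear-encoded subunits of complexes I, III and IV and of the ATP synthase that were tested, 71 rose and 1 fell, where 19.0% of all genes tested rose and 21.5% fell. Their median log2 change was 0.78, against -0.05 for all genes. For comparison, the 8 well-counted mitochondrial coding genes had a median of 0.79. Within this set 36 of 36 subunits of complex I, 9 of 9 of complex III, 11 of 13 of complex IV and 15 of 16 of the ATP synthase rose, as did 4 of 4 subunits of complex II, which has no mitochondrially encoded part. Cox6a2, the heart and muscle form of a complex IV subunit, rose from 951 ± 153 to 2239 ± 587 CPM (log2 1.24, adjusted p = 0.000682). Its counterpart of other tissues, Cox6a1, was the subunit that fell, from 390 ± 3.52 to 311 ± 20.6 CPM (log2 change -0.33, adjusted p = 0.0199). The largest rises elsewhere were those of Ndufb10 (complex I, 0.99), Uqcrfs1 (complex III, 0.94), Atp5g1 (ATP synthase, 1.01) and Sdhb (complex II, 1.07). The Ago2:polyA ratio fell for 70 of the 74, with a median of -0.94, where 19.7% of all genes tested fell and the median of all was -0.07, and the median change of the 74 in Ago2-IP RNA was -0.02.

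Genes of the machinery that makes and processes mitochondrial RNA are given by their counts in polyA RNA, beside the 19.0% of all genes that rose and the 21.5% that fell. Of 9 tested genes of mitochondrial DNA transcription 1 rose, Mrpl12 (log2 0.39, edgeR's quasi-likelihood test, adjusted p = 0.0289), and 0 fell. Polrmt, the RNA polymerase of the organelle, stood at 87.1 ± 2.12 CPM in control and 88.8 ± 1.93 CPM after miR-106b (log2 change 0.03, adjusted p = 0.832), and Tfam, a transcription factor that also packs the genome, at 21.4 ± 2.25 and 20.2 ± 5.06 CPM (-0.10, 0.680). Of 11 genes of mitochondrial DNA replication and nucleotide supply 0 rose and 2 fell, with Primpol, a primase, at a log2 change of -0.82 (adjusted p = 0.0259). Among 16 genes of RNA processing and decay 3 rose and 1 fell: the largest rise was that of Fastk (0.73, adjusted p = 0.00234), and Elac2, which cuts the 3' ends of tRNAs, had a change of -0.36 (0.0157). Lrpprc (0.14, adjusted p = 0.417), Slirp (-0.54, 0.307) and Mtpap, the mitochondrial poly(A) polymerase (0.21, 0.458), did not pass. Of 7 regulators of mitochondrial biogenesis 3 rose and 3 fell. Ppargc1a, a coactivator of respiratory genes, rose from 12.8 ± 3.83 to 29.3 ± 8.1 CPM (1.21, adjusted p = 0.00225) and Ppargc1b from 28.4 ± 4.98 to 68.1 ± 20.7 CPM (1.26, 0.000722), and Gabpb1, a subunit of a factor that binds promoters of such genes, had a change of -0.88 (0.00169).

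Markers of cardiac muscle moved with the mitochondrial genes across the polyA libraries. The summed level of 18 cardiac genes was 22641 to 32183 CPM in polyA control, 44218 to 76393 CPM in polyA miR-106b, 102347 to 109246 CPM in Ago2-IP control and 99466 to 109283 CPM in Ago2-IP miR-106b libraries. All 17 of the list that were tested rose in polyA RNA, with a median log2 change of 1.23, where 19.0% of all genes tested rose and 21.5% fell. The most abundant of them were Myh6, Mb (myoglobin) and Actc1 (cardiac actin), with Mb at 2811 to 3939 CPM in polyA control and 5519 to 9438 CPM in polyA miR-106b libraries. In the 8 polyA libraries, the order from lowest to highest was the same for the cardiac sum and for the mitochondrial coding sum, in 8 of 8 places, and in the 8 Ago2-IP libraries 1 place was the same. How many other genes or lists keep this order was not counted, so the match is not known to be particular to cardiac genes. The coding sum was 0.243 to 0.292 CPM per cardiac CPM in polyA control, 0.184 to 0.209 in polyA miR-106b, 0.163 to 0.172 in Ago2-IP control and 0.177 to 0.184 in Ago2-IP miR-106b libraries. Upon miR-106b transfection it was thus lower in every polyA library and higher in every Ago2-IP library than in the controls. Other marker lists are given for comparison, each with the range of its summed CPM in the polyA libraries (control first, then miR-106b) and, in the same order, in the Ago2-IP libraries. Of the endothelial list 8 of 8 rose in polyA RNA (306 to 452, 570 to 1065, 1401 to 1465 and 1312 to 1440 CPM). Of the leukocyte list 6 of 7 rose (140 to 203, 276 to 426, 579 to 600 and 552 to 619 CPM). These lists stood low in polyA control and high in Ago2-IP RNA, as the cardiac list did. Of the juxtaglomerular and mural list, in which Ren1 was at 0, 5 of 8 tested genes rose and 1 fell (2441 to 2671, 3425 to 4336, 5021 to 5318 and 4792 to 5336 CPM). Of 2 tested kidney tubule genes 1 fell, and Kap of that list was at 0 (416 to 450, 222 to 395, 334 to 361 and 317 to 362 CPM). The part of these markers in the changes of the mitochondrial genes was not tested.

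**Figure D5:**
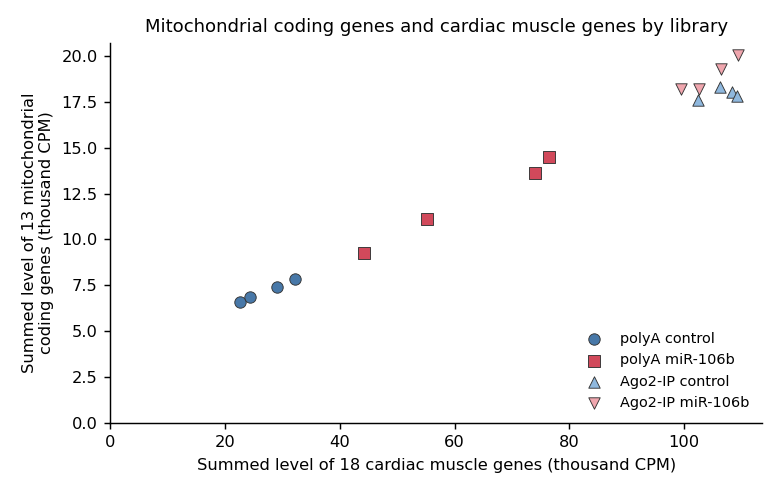
Summed level of the 13 mitochondrial coding genes against that of 18 cardiac muscle genes, both in units of 1000 CPM scaled to library size, 1 point per library. The polyA control libraries lie lowest on both axes, the polyA miR-106b libraries between them and the Ago2-IP libraries, and the order of the 8 polyA libraries is the same on both axes.

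The nuclear genes whose levels ran most like the mitochondrial coding sum over the 16 libraries were Trabd2b, Mdh1, Plin4, Sdha and Naca, each with a Pearson r of 0.998 of log2 CPM, among 9989 nuclear genes with at least 5 CPM in both kinds of RNA. Mdh1 is the cytosolic malate dehydrogenase, Plin4 a protein of lipid droplets, Sdha the catalytic subunit of complex II, and Naca a chaperone subunit that binds new protein chains at the ribosome. They rose in polyA RNA by 0.67 (Naca) to 1.22 (Trabd2b) on the log2 scale, and their Ago2:polyA ratio fell by 0.82 to 1.34. The measure was not selective, as 2381 genes had an r above 0.9, and the 16 points share the step between the 2 kinds of RNA.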

How the data were processed

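PolyA RNA and Ago2-IP RNA of JG cells were sequenced as single-end, unstranded libraries. Ribosomal RNA reads were filtered out by the authors, who mapped what remained to GRCm38 with TopHat2 (version 2.0.10 in the submitters' processing notes) and counted reads on genes with HTSeq. The deposited values are raw counts per gene for 16 libraries, with no filter and no normalization. Samples were grouped by their labels, and 0 value columns were left unmapped.

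Differential tests were run in R 4.3.3 with edgeR 4.0.16 (TMM, robust quasi-likelihood F test, two-sided, threshold 0.05) and with DESeq2 1.42.0 as an alternative, and in Python 3.11.15 with scipy 1.17.1 (exact permutation tests). The polyA and the Ago2-IP libraries were fitted separately, and ratios in 1 fit of all 16 libraries with a term for how transfection acts in each RNA kind. Fitted fold changes used a prior count of 0.125. Shared windows were searched on both strands of GENCODE M21 transcripts, without the genome sequence. Scripts were tested on simulated data. Members and gene lists were chosen with earlier results of these data known. Named are the coding and rRNA genes, tRNA genes past the filter, the copies on chromosome 1 and, in each nuclear list, the largest rise and fall plus Polrmt, Tfam, Lrpprc, Slirp, Ppargc1a and Mtpap, of the cardiac list the 3 most abundant genes, and the 5 genes most alike. Alternatives were other scalings, filters, tests and denominators, a replicate block and leaving out each library. Counts of reads without molecular identifiers carry more than counting error. No pair of replicates was alike within sampling noise (lowest chi-square per degree of freedom 1.69). The labels give replicate cultures, and p-values measure the spread between them.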

Additional observations from a re-analysis of the deposited data

Results flagged for a closer look

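In Ago2-IP control libraries, mt-Co1 of replicate 1, with 3261 CPM scaled within the Ago2-IP libraries, stood apart from the other 3 libraries by more than Dixon's 95% critical value for 4 samples. It was 1 of 60 groups of values tested, and chance marks about 1 in 20. The fitted change of mt-Co1 in Ago2-IP RNA did not pass with or without that library.

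The effect of miR-106b differed between polyA RNA and Ago2-IP RNA, by the test of the interaction in edgeR's quasi-likelihood fit, for 12 of 14 better-counted members, leaving mt-Rnr1 and mt-Ts1. On the log2 scale this difference was -0.91 for mt-Nd1, -0.97 for mt-Nd2, -0.93 for mt-Co1, -0.67 for mt-Atp8, -0.85 for mt-Nd4, -0.67 for mt-Nd5, -0.89 for mt-Nd6, -0.80 for mt-Cytb, -0.54 for mt-Rnr2, -1.0 for mt-Te, -1.28 for mt-Tc and -1.32 for mt-Tn. Of all genes tested, 27.3% passed this test in either direction. No explanation was tested.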

How the results depend on the processing

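The 8 well-counted coding genes kept direction and call in polyA RNA, in the ratio and between the kinds of RNA under every alternative scaling, filter and test and without any library. Among 14 better-counted members, 0 values changed sign under any alternative. Members called numbered 12 to 19 in polyA RNA, 0 to 1 in Ago2-IP RNA, 12 to 17 in the ratio, 26 to 28 between the kinds of RNA in control and 14 to 18 after miR-106b transfection as single libraries were left out. In Ago2-IP RNA 1 member passed with DESeq2's Wald test, 1 with at least 10 counts in every library and 1 without Ago2-IP miR-106b replicate 4, each time mt-Rnr2. Between the kinds of RNA in control, at least 10 counts in every library left 14 members, all called, since fewer genes were tested. The replicate numbers did not pair libraries (correlations -0.42 to 0.259, with 1 of 24 over 0.1). With a replicate block 16 members were called in polyA RNA, 0 in Ago2-IP RNA and 15 in the ratio, and the permutation within replicate numbers, which cannot go below 0.125, gave p = 0.125 for the coding share in polyA RNA (0.496 percentage points) and for the rRNA share in Ago2-IP RNA (0.0363). Without single libraries these differences were 0.416 to 0.591 and 0.0311 to 0.0411, with an exact p of 0.0571, the smallest that 4 against 3 libraries allow. The coding share in Ago2-IP RNA differed by 0.0613 to 0.123 and the rRNA share in polyA RNA by 0.0482 to 0.0883 without single libraries. With counts of protein-coding genes as denominator the coding share in Ago2-IP RNA differed by 0.114 percentage points (exact p = 0.0286). With all 16 libraries in 1 fit 22 members were called in polyA RNA. With scaling to library size only, the calls of mt-Rnr1 in polyA RNA (adjusted p = 0.0616) and of mt-Rnr2 in the ratio (0.123) were lost. Low counts limit the tRNA genes, with 230 to 528 counts for all 22 in a library, and the coding genes mt-Co2, mt-Co3, mt-Atp6, mt-Nd3 and mt-Nd4l.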
